A study of Mus musculus with 12 samples.

Results

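Receptor loss alone was compared with fibrillin-1 mutation alone in the ascending aorta of mice, on 6 of the 12 arrays of the series. The comparison takes the 3 arrays titled as Tgfbr2 knockouts with wild-type Fbn1 and the 3 titled as controls with the Fbn1 mutation, and it covers every annotated gene. All mice carried floxed Tgfbr2 (Tgfbr2f/f) and Myh11-CreERT2, a Cre driven by the smooth muscle myosin gene that needs tamoxifen to act, so deletion is aimed at smooth muscle and other aortic cells keep the receptor. The group called Tgfbr2 loss here was wild-type for Fbn1 and received 1 mg of tamoxifen by intraperitoneal injection on 5 days from an age of 4 weeks. The group called Fbn1 mutant here carried 1 Fbn1C1039G allele, which serves as a mouse model of Marfan syndrome, and received corn oil on the same days, which left Tgfbr2 intact. All mice were killed at 6 weeks. The wild-type controls (corn oil, wild-type Fbn1) and the aortas with both lesions (tamoxifen, Fbn1C1039G), 3 arrays each, are given beside them. Because the groups compared differ in the Fbn1 allele, in Tgfbr2 and in tamoxifen against corn oil, the parts of these in any difference cannot be told apart. No label ties the arrays of a group to separate animals, so p-values cover the spread among arrays, which may be technical.

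TGF-beta ligands are held in the matrix by latent binding proteins, some of which attach to fibrillin-1 microfibrils. Once released, a ligand binds the type II receptor encoded by Tgfbr2, which recruits and phosphorylates the type I receptor Tgfbr1, and SMAD proteins then carry the signal to the nucleus. In aortic smooth muscle this pathway is known for driving collagen, elastin and contractile genes, and both loss of receptor function and mutation of fibrillin-1 cause aneurysm of the ascending aorta.

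Values are log2 of the deposited signal intensity, and differences are Tgfbr2 loss minus Fbn1 mutant, so that a positive value means higher with Tgfbr2 loss. A gene was called when the adjusted p of limma was under 0.05. Median intensity per array lay between 301 and 334 over the 12 arrays. Log2 values correlated at 0.995 to 0.996 within the Tgfbr2 loss group, at 0.993 to 0.996 within the Fbn1 mutant group and at 0.981 to 0.990 between them, over genes that are not independent of each other. The smooth muscle genes Acta2 (14.57, 14.54 and 14.57 with Tgfbr2 loss, 14.60, 14.60 and 14.59 with the Fbn1 mutation) and Myh11 (14.02, 14.04 and 13.97, 14.09, 13.98 and 13.99) were among the brightest on every array. Tgfbr2 itself read 11.88, 11.95 and 11.79 with Tgfbr2 loss and 12.04, 11.98 and 11.95 in the Fbn1 mutant, a difference of -0.12 ± 0.052 (SE, n = 3 against 3, 95% interval -0.23 to -0.0047) with an adjusted p of 0.133. The groups overlapped at 11.95, and the exact two-sided permutation test over 20 assignments gave p = 0.2, where 0.1 is the smallest possible. The probe set of highest signal need not lie in the deleted exons, so it does not check the deletion, and the labels are taken as given. They disagree in 1 field. The description lines of Tgfbr2 loss arrays 2 and 3, and of arrays 2 and 3 with both lesions, write Tgfbr3 and Tgfbr4 for the deleted receptor, where titles and the other fields give Tgfbr2, which was used. Fbn1 has no probe set of its own in the annotation.

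The lesions differed in 2853 of 14944 genes tested, or 19.1% of them. Of these, 1555 were higher with Tgfbr2 loss (10.4% of genes tested) and 1298 were lower (8.69%), and 67 of the higher but 19 of the lower genes differed at least 2-fold. The median difference over all genes was 0.011. Counts of list members given below are to be read against these shares over all genes. In 19 of the higher genes the mean of the other 9 arrays was too dim to be tested, so they entered through the Tgfbr2 loss arrays alone, and 4 of the lower ones entered through the Fbn1 mutant arrays alone. The only such gene in a list used here is Ccl8. Against wild-type controls, which both contrasts share, Tgfbr2 loss alone changed 2814 genes (1370 higher, 1444 lower, 18.8%) and the Fbn1 mutation alone 970 (473 or 3.17% higher, 497 or 3.33% lower, 6.49% in all). The share of higher genes among the calls was 54.5%, but it fell to 44.4% when genes under the median intensity were left out. Several single arrays moved the counts by over 1.5 times. Without Fbn1 mutant array 2, 875 genes were higher and 715 lower, and without Tgfbr2 loss array 3 these were 1034 and 832. Leaving out Tgfbr2 loss array 2 gave 1003 higher genes, and leaving out Tgfbr2 loss array 1 or Fbn1 mutant array 1 gave 737 or 844 lower ones.

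The largest increase was in Thbs1, thrombospondin 1, a matricellular protein that can activate latent TGF-beta. Its levels were 13.34, 13.13 and 13.50 with Tgfbr2 loss and 10.41, 11.10 and 11.57 in the Fbn1 mutant, a difference of 2.30 ± 0.24 (SE) or 4.91-fold (adjusted p = 5.77e-05). The groups were far apart, the wild-type controls lay near the Fbn1 mutant (11.23, 11.55 and 11.61), and the aortas with both lesions lay between (12.84, 12.51 and 12.23). Col8a1, a short-chain collagen of vessel walls, read 12.01, 11.88 and 11.74 against 9.65, 9.72 and 10.22, which is 4.04-fold (adjusted p = 4.89e-05). Aortas with both lesions (10.25, 9.92 and 10.77) lay near the wild-type controls (10.17, 10.55 and 10.00). Ddah1, which breaks down an inhibitor of nitric oxide synthase, read 10.65, 10.19 and 10.84 against 8.13, 8.66 and 8.81 (4.08-fold, adjusted p = 0.000196). Meox1, a homeobox factor of the somites, had the smallest standard error (0.064) of the 12 largest increases, with 9.88, 9.83 and 9.79 against 7.83, 7.93 and 7.88 (3.87-fold, adjusted p = 5.76e-09).

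Glp1r, the receptor of the gut hormone GLP-1, stood at 9.0, 9.18 and 9.48 with Tgfbr2 loss, 7.60, 7.50 and 7.56 in wild-type controls and 6.93, 6.96 and 7.29 in the Fbn1 mutant (adjusted p = 7.36e-07 between the lesions). The Fbn1 mutant values lie under 7.31, the level below which a gene's mean was too dim to be tested, near the dim end of the array, so no fold is given. Vsig4, a complement receptor of macrophages (2.01 ± 0.28), and Wfdc17 (1.64 ± 0.22) were also among the 12. The chemokine Ccl8 read 8.58, 8.44 and 9.16 with Tgfbr2 loss and under 7.31 on all arrays of the other 3 groups. It was tested only because of the Tgfbr2 loss arrays, so its levels are a description, with no test. The remaining members were Ifi205 (2.14), an interferon-inducible gene with close copies that the array may not separate, Ttc9 (1.66), the BMP family ligand Gdf6 (1.65) and the stress factor Atf3. Atf3 read 12.22, 12.93 and 10.74 against 10.00, 10.33 and 10.59. Its Tgfbr2 loss arrays spanned over 2 log2 units, and its adjusted p of 0.0482 was close to the threshold. It rose to between 0.051 and 0.175, which ends the call, without wild-type control array 1, Tgfbr2 loss array 1 or 2, any 1 Fbn1 mutant array, or array 1 or 3 with both lesions. With a score of the immediate early gene list as a covariate the difference was 0.58 (adjusted p = 0.155), and robust empirical Bayes gave an adjusted p of 0.111.

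**Figure D1:**
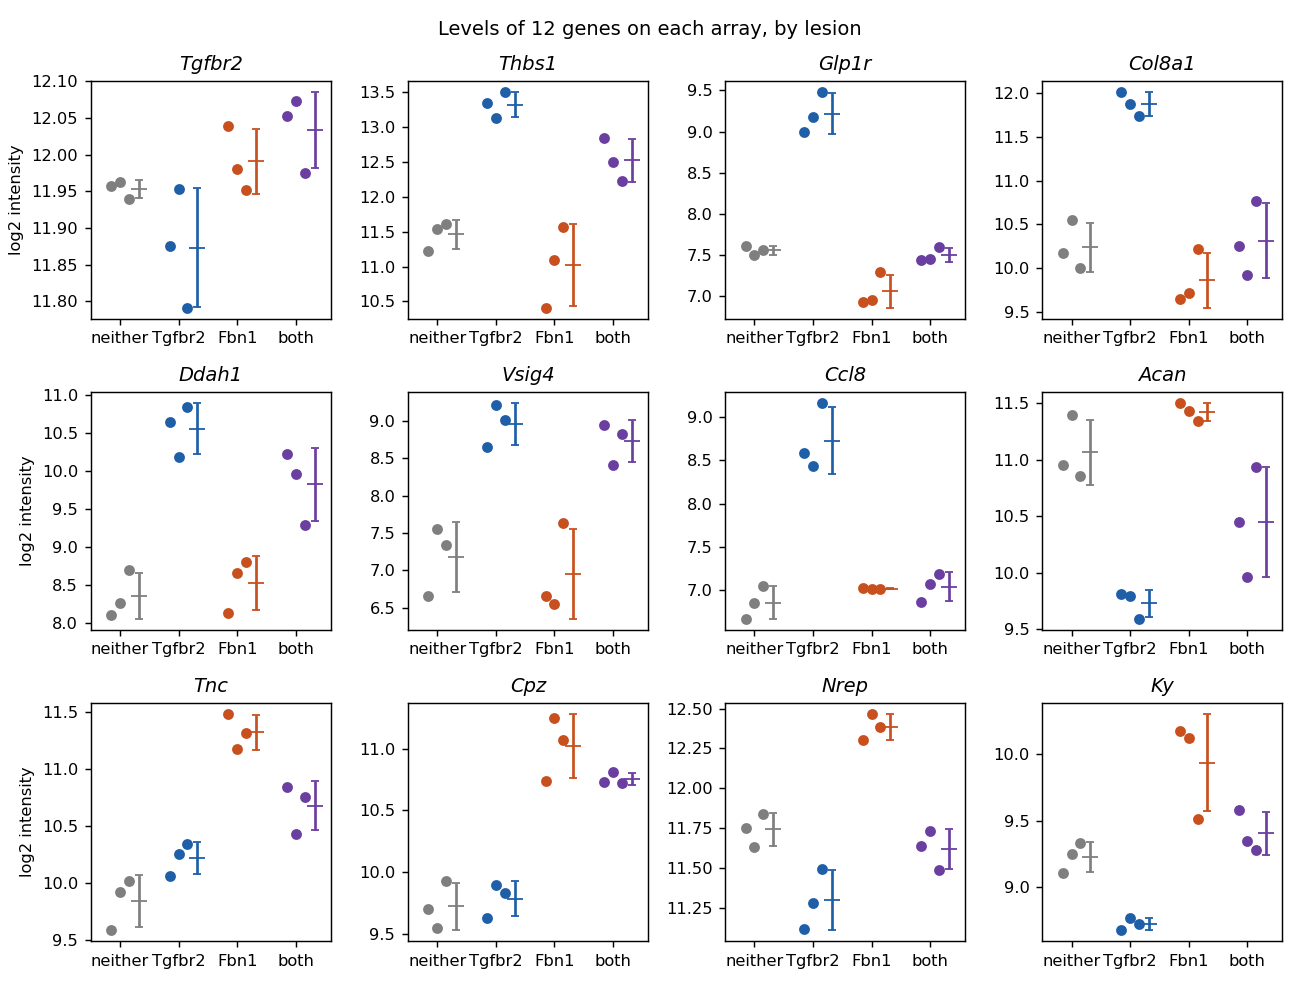
Levels of 12 genes on each of the 12 arrays. The y axis is log2 intensity and differs between panels, each point is 1 array, and the bars beside the points are group means with SD (n = 3). Thbs1, Glp1r, Col8a1, Ddah1, Vsig4 and Ccl8 are higher with Tgfbr2 loss than with the Fbn1 mutation on every array, Acan, Tnc, Cpz, Nrep and Ky are lower on every array, and the Tgfbr2 panel spans under 0.3 log2 units.

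The largest of the 12 decreases was in Acan, the large proteoglycan of cartilage. It read 9.81, 9.79 and 9.59 with Tgfbr2 loss and 11.50, 11.43 and 11.34 in the Fbn1 mutant, which is 3.23-fold lower (adjusted p = 0.000129). Wild-type controls (10.95, 11.39 and 10.85) lay on the side of the Fbn1 mutant, and the change from them with Tgfbr2 loss was -1.34 (adjusted p = 0.000518). Smim5, Syt15, Sphkap and Mylk4 were likewise called lower than wild-type controls with Tgfbr2 loss and not called with the Fbn1 mutation. Mylk4, a myosin light chain kinase, was 12.14, 12.20 and 12.01 against 13.37, 13.22 and 13.24, 2.23-fold lower (adjusted p = 4.97e-06). Sphkap, an anchor of protein kinase A, differed by -1.25 ± 0.31, Smim5 by -1.42 ± 0.12 and Syt15, a synaptotagmin, by -1.29 ± 0.15. Sphkap lost its call without Tgfbr2 loss array 3 (adjusted p = 0.0599) or Fbn1 mutant array 1 (adjusted p = 0.051).

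For Tnc and Cpz it was the Fbn1 mutant that stood apart. Tnc, tenascin C, a matrix protein of tissue repair, read 11.48, 11.18 and 11.31 in the Fbn1 mutant, 10.06, 10.25 and 10.34 with Tgfbr2 loss and 9.58, 9.92 and 10.02 in wild-type controls. The Fbn1 mutation raised it by 1.49 (adjusted p = 0.00012), while the change with Tgfbr2 loss was 0.38 (adjusted p = 0.06), so the lesions differed by -1.11 ± 0.13 (adjusted p = 0.000139). Cpz, a secreted carboxypeptidase that binds Wnt proteins, read 10.74, 11.25 and 11.07 against 9.63, 9.90 and 9.83, and its change with Tgfbr2 loss from wild-type controls was 0.064 (adjusted p = 0.771). Aortas with both lesions held Cpz at the level of the Fbn1 mutant (10.73, 10.81 and 10.72), while their Tnc lay between (10.84, 10.43 and 10.76). Tcap, a protein of the sarcomere, differed by -1.08 ± 0.25, and Ky, a muscle protein, and Nrep, a neuronal regeneration protein, are given with the genes that moved in opposite directions. The other members of the 12, Ciart and Nr1d1, belong to the circadian clock and are given with it.

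Macrophage genes were higher with Tgfbr2 loss almost throughout. Of 40 markers 37 were tested, and 32 were higher and 0 lower, with a median difference of 0.80 against 0.011 for all genes. The pan-macrophage genes Adgre1 (10.49, 10.31 and 10.50 against 9.37, 9.62 and 9.68) and Csf1r, the receptor of macrophage growth factor (11.20, 11.05 and 11.25 against 10.37, 10.34 and 10.64), did not overlap between the groups, and differed by 0.88 and 0.72. The strongest by p were Fcgr2b, the inhibitory Fc receptor (1.10 ± 0.061, adjusted p = 8.47e-07), the integrin subunit Itgam (0.95 ± 0.063, adjusted p = 4.97e-06), Fcrls (1.49 ± 0.10, adjusted p = 4.97e-06) and the lysosomal protease Ctss (1.15 ± 0.094, adjusted p = 1.42e-05). Fcgr2b read 10.43, 10.49 and 10.57 with Tgfbr2 loss and 9.32, 9.37 and 9.51 in the Fbn1 mutant, while wild-type controls read 9.27, 9.39 and 9.35. Against wild-type controls 33 markers were higher with Tgfbr2 loss and 3 with the Fbn1 mutation. The summed intensity of the 37 markers was 53690.4 to 59949 per array with Tgfbr2 loss, 27530.5 to 37318.5 in the Fbn1 mutant, 27723 to 32995 in wild-type controls and 42981 to 44236 with both lesions. In RNA of whole tissue, more cells of a type and more RNA per cell cannot be told apart. The macrophage count held within 1.5 times when any array was left out.

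Other lists of innate immune genes were called mostly in the same direction. Complement components were higher in 9 of 17, among them C4b (11.53, 11.62 and 11.52 against 10.17, 10.00 and 10.40, 2.58-fold, adjusted p = 4.97e-06), the alternative pathway factor Cfb (0.83 ± 0.076) and the C1q chains C1qa (0.92 ± 0.099) and C1qb (0.98 ± 0.13), which the macrophage list also holds. Of 10 genes of MHC class II presentation 7 were higher, led by Ctss again and H2-Eb1 (0.88 ± 0.13), H2-Ab1 (1.04 ± 0.17) and the invariant chain Cd74 (0.97 ± 0.16), and 1, the thiol reductase Ifi30, was lower (-0.29 ± 0.066). H2-Ab1 read 11.21, 11.09 and 11.52 with Tgfbr2 loss against 9.97, 10.52 and 10.21 in the Fbn1 mutant. Chemokines and their receptors were higher in 11 of 26, or 10 without Ccl8, and lower in 1, with Cx3cl1 (0.72), Ccl9 (1.04) and Ccl2 (0.59) among them. Of 10 tested markers of T, B and NK lymphocytes limma called 0 in either direction, where 3 had an unadjusted p under 0.05, with a median of -0.074, and 12 others on the array were too dim to test. Without Fbn1 mutant array 2, 3 were called lower, and without Fbn1 mutant array 1, 1 was called higher. The summed intensity of the 10 was 2270.1 to 2399.5 with Tgfbr2 loss and 2273 to 3109.6 in the Fbn1 mutant.

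Endothelial markers were higher with Tgfbr2 loss in 18 of 31 and lower in 0, with a median of 0.36. Cdh5, the cadherin of endothelial junctions, read 11.21, 11.04 and 11.54 against 10.16, 10.45 and 10.75, so that the groups did not overlap but came close (adjusted p = 0.00512). The clotting factor carrier Vwf read 11.58, 11.35 and 11.72 against 10.82, 10.73 and 11.07 (difference 0.68 ± 0.11, adjusted p = 0.0014). Plvap (0.50 ± 0.085), Cd34 (0.45 ± 0.078) and the co-receptor Eng (0.43 ± 0.073) were the other members of smallest p. Against wild-type controls 11 markers were higher and 1 lower with Tgfbr2 loss, and limma called 0 with the Fbn1 mutation, where 3 had an unadjusted p under 0.05. Fbn1 mutant array 3 had the highest endothelial level of its group, and leaving out Fbn1 mutant array 2 cut the count from 18 to 10. The summed intensity of the 31 markers was 64127.5 to 74599 with Tgfbr2 loss and 46969 to 57507.5 in the Fbn1 mutant, and its part in other differences was not tested.

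**Figure D2:**
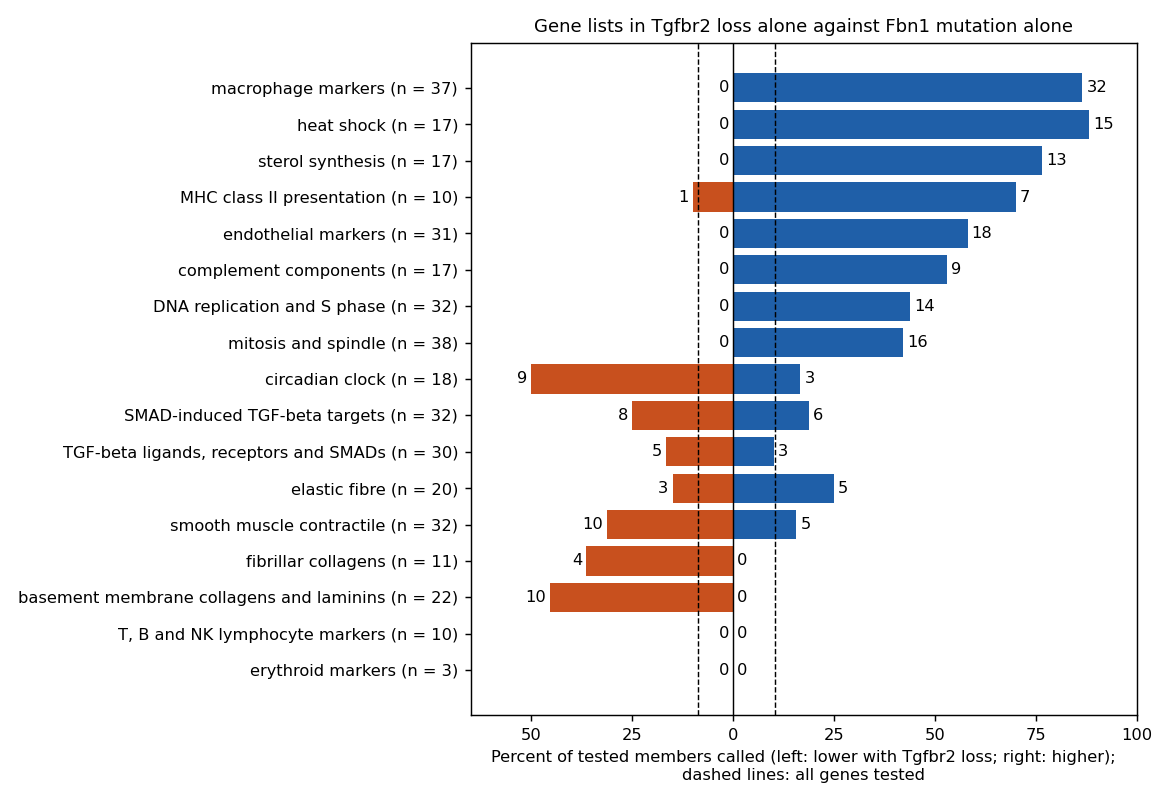
Share of the tested members of 17 gene lists called between the lesions. Bars to the right (blue) are members higher with Tgfbr2 loss alone and bars to the left (orange) members lower, in percent of those tested, with the count at each bar's end and the number tested after each name. Dashed lines mark the shares over all genes tested, 10.4% higher and 8.69% lower, and the macrophage (32 of 37), heat shock (15 of 17) and basement membrane (10 of 22) bars reach well past them.

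Genes of the TGF-beta pathway itself were called in both directions between the lesions. Of 30 ligands, latent binding proteins, receptors, SMADs and inhibitors, 3 were higher and 5 lower with Tgfbr2 loss, with a median of -0.002. Over all genes 10.4% were higher and 8.69% lower. Against wild-type controls 3 members were higher and 11 lower with Tgfbr2 loss, and 0 higher and 2 lower with the Fbn1 mutation. Between the lesions the ligand Tgfb3 was higher (0.37 ± 0.055, adjusted p = 0.000776), while Tgfb1 (0.13 ± 0.066) and Tgfb2 (0.24 ± 0.11) were not called. Of the latent binding proteins, Ltbp1 (12.70, 12.77 and 12.68 against 13.25, 13.06 and 12.94, difference -0.37 ± 0.066) and Ltbp3 (-0.36 ± 0.054) were lower and Ltbp2 was higher (0.37 ± 0.11). Of the receptors, Tgfbr1 stood at 11.46, 11.35 and 11.27 with Tgfbr2 loss and 11.44, 11.41 and 11.42 in the Fbn1 mutant, both groups below the wild-type controls at 11.85, 11.81 and 11.61. Its changes from them were -0.39 (adjusted p = 0.00379) and -0.33 (adjusted p = 0.0263), and the difference between the lesions was -0.063 (95% interval -0.23 to 0.10, adjusted p = 0.603). The co-receptor Tgfbr3 differed by -0.10 (adjusted p = 0.271), the type I receptor Acvrl1 by 0.14 (adjusted p = 0.125), while the BMP receptor Bmpr1a was lower, at -0.22 (adjusted p = 0.0189). The feedback inhibitors Pmepa1 and Ldlrad4, which TGF-beta induces, were both lower. Pmepa1 read 13.33, 13.37 and 13.41 with Tgfbr2 loss, 13.64, 13.68 and 13.58 in the Fbn1 mutant and 13.75, 13.79 and 13.77 in wild-type controls (difference between the lesions -0.26 ± 0.048, adjusted p = 0.00281), and Ldlrad4 differed by -0.47 ± 0.073 (adjusted p = 0.000953). With quantile normalization 5 members instead of 3 were higher. Ltbp2 lost its call without Tgfbr2 loss array 1 or 2 or Fbn1 mutant array 2 or 3 (adjusted p 0.101 to 0.133), and Bmpr1a without Tgfbr2 loss array 1 or 3 or Fbn1 mutant array 1 or 2 (0.0521 to 0.0723). Both were also lost with the immediate early covariate (adjusted p = 0.149 and 0.099).

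Genes known to be induced by TGF-beta through SMADs split in direction, with 6 of 32 higher and 8 lower and a median of -0.060. Both counts lie above the shares over all genes, 10.4% higher and 8.69% lower. The higher members were Thbs1, the collagen-binding integrin Itga11 (9.76, 9.83 and 9.68 against 8.80, 8.82 and 9.04), Ccn5 (1.19 ± 0.13), Ccn2 (0.30 ± 0.085), Timp3 (0.22 ± 0.044) and Ltbp2. The lower ones were Nox4, an NADPH oxidase (12.02, 11.93 and 11.96 against 12.54, 12.55 and 12.62, difference -0.60 ± 0.086, adjusted p = 0.000622), Tspan2 (-0.42 ± 0.063), periostin, Postn (-0.28 ± 0.043), both inhibitors above and the collagen genes Col1a1, Col1a2 and Col3a1. Ccn2, connective tissue growth factor, was called although its groups overlapped, 14.36, 14.40 and 14.23 against 13.85, 14.00 and 14.24, and the call was lost without Tgfbr2 loss array 1 or 2 or Fbn1 mutant array 1 or 2 (adjusted p 0.077 to 0.0931) or with the immediate early covariate (0.139). Against wild-type controls, Nox4 fell by 0.87 with Tgfbr2 loss (adjusted p = 4.14e-05), and its value with the Fbn1 mutation was -0.27 (adjusted p = 0.0836).

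Basement membrane genes were lower with Tgfbr2 loss in 10 of 22 and higher in 0, with a median of -0.17. The network collagen genes Col4a1 and Col4a2 encode the chains that pair in the common collagen IV network. They lie head to head on chromosome 8 with starts 21 bases apart, each start inside the other transcript, so their first bases overlap. Their RefSeq promoter windows (GRCm38.p6, 250 bases before the start and 30 after) share 38 bases, given in capitals, most of them after the gene's own start. The windows lie at chr8:11312797-11313076 on the minus strand for Col4a1 and chr8:11312555-11312834 on the plus strand for Col4a2. The windows are shown because both genes moved together.
Col4a1: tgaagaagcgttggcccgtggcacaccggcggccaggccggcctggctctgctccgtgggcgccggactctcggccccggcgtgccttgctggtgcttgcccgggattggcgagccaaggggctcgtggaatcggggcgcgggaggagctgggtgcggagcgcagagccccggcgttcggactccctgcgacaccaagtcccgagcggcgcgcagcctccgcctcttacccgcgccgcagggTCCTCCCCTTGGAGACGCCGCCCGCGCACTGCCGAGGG
Col4a2: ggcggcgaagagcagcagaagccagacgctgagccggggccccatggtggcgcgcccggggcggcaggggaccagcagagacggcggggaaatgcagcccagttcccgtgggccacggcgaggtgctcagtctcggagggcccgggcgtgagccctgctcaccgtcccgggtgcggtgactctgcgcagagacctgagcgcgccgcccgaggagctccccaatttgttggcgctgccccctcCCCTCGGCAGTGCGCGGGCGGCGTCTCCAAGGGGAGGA
Col4a1 read 11.25, 11.25 and 11.22 with Tgfbr2 loss, 12.04, 11.80 and 11.71 in the Fbn1 mutant and 11.48, 11.42 and 11.40 in wild-type controls, a difference of -0.61 ± 0.071 between the lesions (adjusted p = 0.000147). Col4a2 read 11.33, 11.41 and 11.31, 12.38, 12.14 and 12.04 and 11.81, 11.95 and 11.77, a difference of -0.83 ± 0.078 (adjusted p = 2.89e-05). Wild-type controls lay between the lesions for both genes, and the aortas with both lesions (11.51, 11.51 and 11.59 for Col4a2) lay on the side of Tgfbr2 loss.

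The other basement membrane genes differed in which lesion stood apart from wild-type controls. Col15a1, a collagen that links basement membranes to the matrix, read 12.23, 12.19 and 12.17 with Tgfbr2 loss and 13.37, 13.28 and 13.03 in the Fbn1 mutant (2.04-fold lower, adjusted p = 6.6e-06). It was called in both directions from wild-type controls, at -0.60 with Tgfbr2 loss (adjusted p = 0.000156) and 0.43 with the Fbn1 mutation (adjusted p = 0.00574). Agrin, Agrn, a heparan sulfate proteoglycan, changed with Tgfbr2 loss (-0.42, adjusted p = 0.000111), and its value with the Fbn1 mutation was 0.13 (adjusted p = 0.13). The linker Nid2 did the reverse, with 0.52 for the Fbn1 mutation (adjusted p = 0.00145) and 0.056 for Tgfbr2 loss (adjusted p = 0.628). Col4a5 (-0.62 ± 0.051), the laminin chains Lama5 (-0.64 ± 0.094) and Lamc1 (-0.35 ± 0.074), Col18a1 (-0.49 ± 0.067) and perlecan, Hspg2 (-0.50 ± 0.080), completed the 10. Over the list, Tgfbr2 loss alone had 8 lower and 2 higher members against wild-type controls, and the Fbn1 mutation alone 9 higher and 0 lower. The count of 10 stayed within 1.5 times without any single array.

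Fibrillar collagen genes were lower with Tgfbr2 loss in 4 of 11 and higher in 0. These were Col1a1 (13.44, 13.53 and 13.56 with Tgfbr2 loss against 13.97, 13.82 and 13.75 in the Fbn1 mutant, difference -0.33 ± 0.070, adjusted p = 0.00657), Col1a2 (-0.28 ± 0.057), Col3a1 (-0.33 ± 0.076) and Col5a1 (-0.27 ± 0.075). For Col1a1 both lesions were above the wild-type controls (13.10, 13.11 and 13.30), by 0.34 (adjusted p = 0.00493) and 0.68 (adjusted p = 0.000333). Against wild-type controls the Fbn1 mutation had 5 higher members and Tgfbr2 loss 3, with 0 lower in either. Among other collagens, Col12a1 (0.64 ± 0.12) and Col23a1 (0.27 ± 0.051) were higher and Col14a1 was lower (-0.29 ± 0.057). The collagen modifying enzymes P3h2 (-0.83 ± 0.12), P3h1 (-0.29 ± 0.054), Crtap (-0.34 ± 0.056) and Colgalt1 (-0.29 ± 0.055) were lower, within 5 lower and 3 higher of 19. Over all genes 8.69% were lower and 10.4% higher. Col5a1 lost its call without Tgfbr2 loss array 1 or Fbn1 mutant array 1 or 2 (adjusted p 0.0529 to 0.094). With the immediate early covariate Col5a1 (adjusted p = 0.129) and Col3a1 (0.0636) were not called. That left 2 fibrillar collagens.

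Elastic fibre genes were called in both directions, with a median of -0.005. Of 20 tested, 5 were higher and 3 lower, where 10.4% of all genes were higher and 8.69% lower. Adamtsl2, which binds fibrillin-1 and latent TGF-beta binding protein, was the largest. It read 12.44, 12.49 and 12.40 with Tgfbr2 loss, 10.78, 10.71 and 11.05 in the Fbn1 mutant and 11.36, 11.16 and 11.13 in wild-type controls, 3.03-fold between the lesions (adjusted p = 8.59e-07). Fbln2, fibulin 2, read 12.29, 12.41 and 12.45 against 11.58, 11.27 and 11.49 (1.92-fold, adjusted p = 0.000196). Elastin itself, Eln, was raised from wild-type controls in both lesions, by 0.44 with Tgfbr2 loss (adjusted p = 0.00662) and 0.75 with the Fbn1 mutation (adjusted p = 0.00121). Between the lesions it was lower with Tgfbr2 loss, 14.08, 14.00 and 14.11 against 14.50, 14.39 and 14.23, at -0.31 ± 0.096 with an adjusted p of 0.0417. This call was lost without any 1 Tgfbr2 loss array, Fbn1 mutant array 1 or 2, wild-type control array 2 or array 1 with both lesions (adjusted p 0.0517 to 0.141), or with the immediate early covariate (-0.21, adjusted p = 0.205). The protease Adamts10, which acts on fibrillin microfibrils (-0.47 ± 0.074), and Emilin1 (-0.32 ± 0.063) were lower too. The count of 5 higher members fell to 3 without Tgfbr2 loss array 3, Fbn1 mutant array 1 or Fbn1 mutant array 2.

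**Figure D3:**
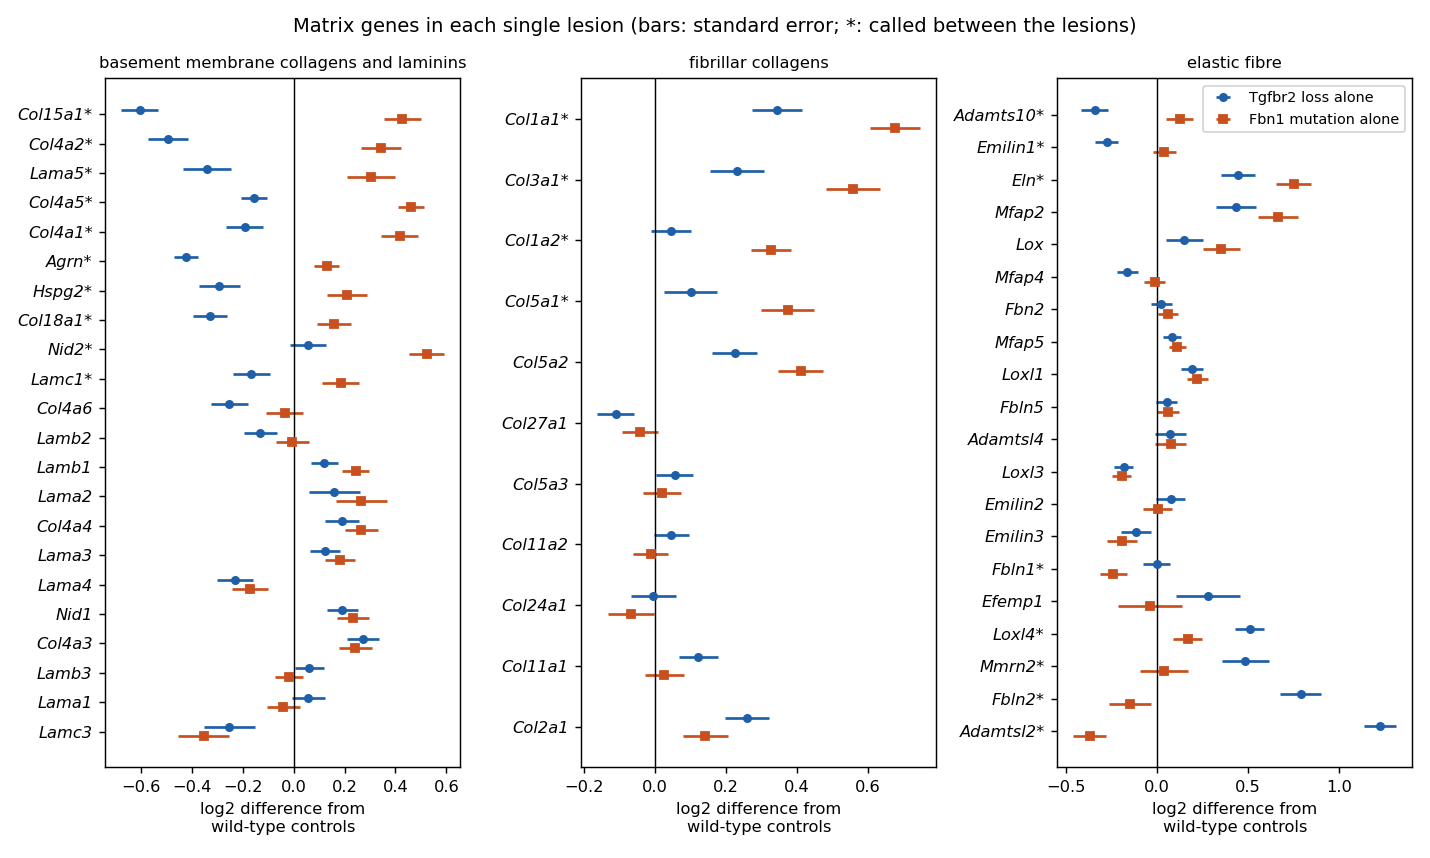
Difference of each single lesion from wild-type controls for tested members of 3 matrix lists. The x axis is the log2 difference, blue circles are Tgfbr2 loss alone and orange squares the Fbn1 mutation alone, bars are standard errors, and an asterisk marks genes called between the lesions. Both points use the same 3 control arrays. Col15a1, Col4a2, Lama5 and Col4a1 have the circle left and the square right of 0, while for Col1a1 and Eln both lie right of 0.

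Contractile genes changed by small amounts. Of 32 tested, 10 were lower and 5 higher with Tgfbr2 loss, with a median of -0.038. Over all genes 8.69% were lower and 10.4% higher, so members were called more often than genes at large, above all lower. The intervals of the most abundant ones were narrow, with a difference of -0.038 for Acta2 (95% interval -0.12 to 0.048) and -0.008 for Myh11 (95% interval -0.11 to 0.094). The members of smallest p were Npnt, nephronectin (-0.42 ± 0.049, adjusted p = 0.000147), the intermediate filament gene Des (0.70 ± 0.084, adjusted p = 0.000169), Pdlim7 (-0.44 ± 0.066, adjusted p = 0.000819) and the cGMP-dependent kinase Prkg1 (-0.29 ± 0.052, adjusted p = 0.00267). Des read 12.50, 12.69 and 12.61 with Tgfbr2 loss, 11.73, 11.88 and 12.09 in the Fbn1 mutant and 12.40, 12.44 and 12.27 in wild-type controls, so the Fbn1 mutant was the low group. Npnt and Pdlim7 moved from wild-type controls with Tgfbr2 loss, by -0.39 and -0.43. The 5 higher genes became 2 without Tgfbr2 loss array 2 or Fbn1 mutant array 3 and 3 without Tgfbr2 loss arrays 1 or 3 or Fbn1 mutant array 2, and the 10 lower genes became 6 without Tgfbr2 loss array 1 or Fbn1 mutant array 2. With the immediate early covariate they were 3 and 6.

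Receptors and enzymes that set vessel tone were higher in 10 of 28 and lower in 4, where 10.4% of all genes were higher and 8.69% lower. Apart from Ddah1, the clearance receptor of natriuretic peptides Npr3 (0.91 ± 0.075, adjusted p = 1.46e-05), the adrenergic receptor Adra1b (0.50 ± 0.069) and the cGMP phosphodiesterase Pde5a (0.29 ± 0.048) were higher. Agtr1a, the angiotensin II type 1a receptor, was higher than in wild-type controls (8.59, 8.53 and 8.69) in both lesions. It read 8.98, 9.0 and 9.10 with Tgfbr2 loss and 9.39, 9.36 and 9.29 in the Fbn1 mutant, a difference of -0.32 ± 0.078 (adjusted p = 0.0129). Of the voltage-gated calcium channel subunits, Cacna1c (-0.48 ± 0.099) and Cacna2d1 (-0.30 ± 0.072) were lower, the second not called without Fbn1 mutant array 1 (adjusted p = 0.0553). With the immediate early covariate neither Agtr1a (-0.24, adjusted p = 0.0779) nor Cacna2d1 (adjusted p = 0.0572) was called, and 2 members were lower instead of 4.

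Cell division genes were raised by both lesions, and a part of them further with Tgfbr2 loss. Of 38 tested genes of mitosis and the spindle, 37 were higher than in wild-type controls with Tgfbr2 loss and 24 with the Fbn1 mutation, contrasts that share the control arrays. Between the lesions 16 were higher with Tgfbr2 loss and 0 lower, with a median of 0.31. Ccnb2, cyclin B2, read 9.56, 9.53 and 9.70 with Tgfbr2 loss, 9.28, 9.07 and 9.03 in the Fbn1 mutant and 7.90, 7.90 and 8.21 in wild-type controls, and its difference between the lesions was 0.47 ± 0.14 (adjusted p = 0.0296), a call lost without any 1 Tgfbr2 loss array or Fbn1 mutant array 2 or 3 (adjusted p 0.0553 to 0.0966) or with the immediate early covariate (0.0785). The condensin subunit Ncaph (0.45 ± 0.067, adjusted p = 0.00075), Smc2 (0.34 ± 0.050), the spindle checkpoint gene Mad2l1 (0.46 ± 0.085) and the kinase Aurkb (0.57 ± 0.11) had the smallest p. The count of 16 fell to 8, 7 and 5 without Tgfbr2 loss arrays 1, 2 and 3 and to 4 and 5 without Fbn1 mutant arrays 2 and 3, and it was 10 with arrays centred on their medians, 6 with a filter at the median intensity, 7 with the immediate early covariate and 25 with array weights. Of 32 genes of DNA replication and S phase, 14 were higher and 0 lower between the lesions, among them the replicative helicase genes Mcm2 (9.46, 9.57 and 9.52 against 9.13, 9.02 and 9.05) and Mcm5 (0.38 ± 0.063), the origin factor Cdc45 (0.27 ± 0.044) and E2f8 (0.47 ± 0.087). That count was 8 without Tgfbr2 loss array 3, 9 without Fbn1 mutant array 2, 6 with a filter at the median intensity and 8 with the immediate early covariate. For both lists, the filter at the median tests fewer genes, so members too dim for it cannot be called.

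Some genes were called against wild-type controls in both lesions with the same sign. Since each contrast uses the same 3 control arrays, a shift of those arrays alone would enter both. Of the genes chosen for the largest common rise, Ccna2, Mki67, Top2a, Stmn1 and Ect2 act in cell division, and P2rx1 is an ATP-gated channel of smooth muscle. Mki67 read 9.20, 9.09 and 9.38 with Tgfbr2 loss, 9.39, 8.84 and 8.72 in the Fbn1 mutant and 7.86, 7.93 and 7.75 in wild-type controls, and the interval of the difference between the lesions was -0.12 to 0.60. P2rx1 read 10.81, 10.67 and 10.87, 11.08, 11.12 and 10.73 and 9.71, 10.03 and 10.05, with an interval of -0.47 to 0.078 for the difference, and stood higher with both lesions (12.23, 12.03 and 11.82). The genes of largest common fall were Bmp3, Gpr165, Gmnc, Wif1, Nnt and Kctd16. Bmp3, an atypical BMP ligand, read 10.10, 10.35 and 10.29 with Tgfbr2 loss, 9.99, 9.87 and 10.50 in the Fbn1 mutant and 11.40, 11.28 and 11.41 in wild-type controls. Gmnc, a regulator of multiciliated cells, read 8.16, 8.33 and 8.16, 7.73, 8.38 and 8.48 and 9.31, 9.45 and 9.08, and only 6.93, 7.09 and 7.27 with both lesions. Wif1, a secreted Wnt inhibitor, fell by 0.84 and 1.04. The intervals of the differences between the lesions were -0.17 to 0.42 for Bmp3, -0.34 to 0.38 for Gmnc and -0.12 to 0.51 for Wif1.

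Nnt, a mitochondrial transhydrogenase, split arrays within groups. It read 11.29, 11.72 and 11.21 in wild-type controls, 11.10, 10.33 and 10.37 with Tgfbr2 loss, 10.41, 10.30 and 10.30 in the Fbn1 mutant and 11.32, 10.48 and 10.41 with both lesions. Tgfbr2 loss array 1 stood near the wild-type level and arrays 2 and 3 near the Fbn1 mutant level. With the level of Nnt as a covariate, an alternative chosen after the data were seen, 1528 genes were higher and 1066 lower between the lesions. Against wild-type controls it left 1206 genes called with Tgfbr2 loss instead of 2814, and 183 with the Fbn1 mutation instead of 970. The median standard error of the Fbn1 mutation contrast grew 1.67 times.

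Other genes were called in opposite directions against the wild-type controls. Trim67, a ubiquitin ligase of the tripartite motif family, rose with Tgfbr2 loss (10.34, 10.36 and 10.45) and fell with the Fbn1 mutation (8.90, 8.78 and 8.89) from 9.59, 9.41 and 9.36, so that the lesions lay 2.88-fold apart (adjusted p = 7.95e-08). Its aortas with both lesions read 9.31, 9.36 and 9.43. Srpx2 (1.12 ± 0.11), the endoplasmic reticulum protein Sdf2l1 (1.16 ± 0.10), the prolyl hydroxylase Egln3 (1.00 ± 0.12), the kinase Stk32a (1.12 ± 0.089) and Glp1r had the same pattern. The Fbn1 mutant values of Glp1r lie under 7.31, so its fall was read near the dim end of the array. The reverse pattern, lower with Tgfbr2 loss and higher with the Fbn1 mutation, was led by Ky (8.68, 8.77 and 8.72 against 10.17, 10.12 and 9.51, wild-type 9.11, 9.25 and 9.33), the DNA demethylation enzyme Tet1 (-0.95 ± 0.10) and Nrep (11.12, 11.28 and 11.49 against 12.30, 12.46 and 12.39, wild-type 11.75, 11.63 and 11.84). Col15a1, Synpo2l (-0.87 ± 0.069), an actin-binding protein of muscle, and Igsf9b (-0.75 ± 0.095) followed. All 6 genes of each kind were picked for this pattern, so it is a description.

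**Figure D4:**
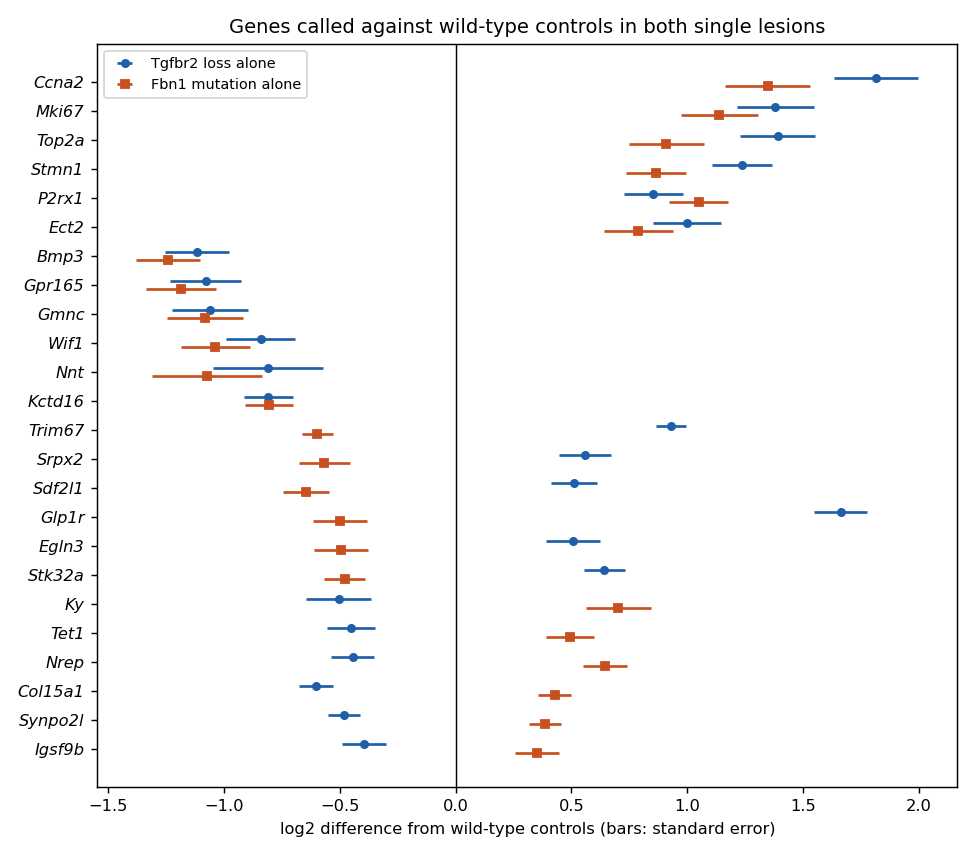
Genes called against wild-type controls in both single lesions, 6 of each of 4 kinds. The x axis is the log2 difference from the 3 wild-type control arrays, blue circles are Tgfbr2 loss alone, orange squares the Fbn1 mutation alone, and bars are standard errors. In the upper 12 genes circle and square lie on the same side of 0, and in the lower 12, from Trim67 to Igsf9b, on opposite sides.

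Heat shock genes were higher with Tgfbr2 loss than with the Fbn1 mutation in 15 of 17 and lower in 0, with a median of 0.44. Against wild-type controls the Fbn1 mutation had 10 lower members and 0 higher, and Tgfbr2 loss had 2 lower and 0 higher. Hsph1, a large co-chaperone of the HSP70 family, read 10.10, 10.38 and 10.45 in the Fbn1 mutant, 11.30, 11.21 and 11.22 with Tgfbr2 loss and 11.42, 11.53 and 11.54 in wild-type controls (difference between the lesions 0.93 ± 0.11, adjusted p = 0.000129). Hspa1a, an inducible HSP70, read 10.98, 11.66 and 11.82, 12.89, 12.99 and 12.63 and 12.36, 12.74 and 12.22 (2.56-fold between the lesions, adjusted p = 0.000528), although its near-identical copy may share the signal. The co-chaperone Dnaja1 (0.57 ± 0.082), the chaperones Hsp90aa1 (0.48 ± 0.072) and Hspd1 (0.36 ± 0.060), the adaptor Stip1 (0.48 ± 0.078) and the small heat shock protein Hspb1 were called too. Hspb1 showed a wide Fbn1 mutant group (12.70, 13.12 and 13.50 against 13.78, 13.80 and 13.77), and its call was lost without Tgfbr2 loss array 2 or Fbn1 mutant array 1 or 2 (adjusted p 0.0516 to 0.0645) or with the immediate early covariate (0.0991). Fbn1 mutant array 1 was the lowest of all arrays for Hspa1a and Hspb1, and without it 8 members were called instead of 15. Aortas with both lesions held Hsph1 as low as the Fbn1 mutant (9.98, 10.00 and 10.38), but the list as a whole stood higher there. Its summed intensity was 79279 to 89440 with both lesions and 67114 to 79483 in the Fbn1 mutant. It was 90365 to 96144 in wild-type controls and 94907 to 99338 with Tgfbr2 loss. With the immediate early covariate 9 members were higher.

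Promoters of heat shock genes are shown because the genes moved together. The motif searched was GAANNTTC, an inverted pair of the units bound by heat shock factor, which reads the same on both strands. It was in 11 of 20 windows of the list (55.0%), from 14 members with a window, and in 7.86% of all 32851 RefSeq windows of 300 bases. The windows printed are 280 bases (GRCm38.p6, 250 before the start and 30 after), with the motif in capitals, at chr17:34972127-34972406 on the minus strand for Hspa1a, chr4:40722218-40722497 on the plus strand for Dnaja1 and chr5:135887669-135887948 on the plus strand for Hspb1.
Hspa1a: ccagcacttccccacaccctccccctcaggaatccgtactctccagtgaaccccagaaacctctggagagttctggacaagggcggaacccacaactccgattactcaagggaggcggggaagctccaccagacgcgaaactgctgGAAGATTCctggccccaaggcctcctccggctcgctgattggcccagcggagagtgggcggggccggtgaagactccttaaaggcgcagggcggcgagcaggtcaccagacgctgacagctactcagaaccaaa
Dnaja1: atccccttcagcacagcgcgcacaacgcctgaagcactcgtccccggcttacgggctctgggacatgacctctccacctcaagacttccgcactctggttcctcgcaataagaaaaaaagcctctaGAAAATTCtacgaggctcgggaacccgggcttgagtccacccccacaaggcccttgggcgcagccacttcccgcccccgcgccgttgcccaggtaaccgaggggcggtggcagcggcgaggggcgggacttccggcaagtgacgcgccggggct
Hspb1: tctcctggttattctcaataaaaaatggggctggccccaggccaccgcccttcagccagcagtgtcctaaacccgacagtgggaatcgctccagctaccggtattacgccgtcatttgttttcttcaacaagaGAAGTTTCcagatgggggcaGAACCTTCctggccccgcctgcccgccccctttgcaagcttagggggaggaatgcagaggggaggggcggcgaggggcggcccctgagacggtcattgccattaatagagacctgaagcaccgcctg
Hspb1 has 2 matches and the others 1 each. Dnaja1 has 3 windows, of which a window with the most matches is printed. A match is a description of the letters and not evidence of binding.

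Clock genes of opposite phases were on opposite sides. Of 18 tested, 9 were lower and 3 higher with Tgfbr2 loss, with a median of -0.32. Lower were the repressor Nr1d1 (12.49, 12.35 and 11.94 with Tgfbr2 loss against 13.83, 13.80 and 13.19 in the Fbn1 mutant, 2.53-fold, adjusted p = 0.00208), its relative Nr1d2 (-0.36 ± 0.084), the PAR bZIP factors Dbp (11.75, 11.87 and 11.37 against 12.66, 12.64 and 12.48, adjusted p = 0.000648), Tef (-0.56 ± 0.055) and Hlf (-0.22 ± 0.055), and Per3 (-0.47 ± 0.076), Cry2 (-0.28 ± 0.072), Bhlhe41 (-1.01 ± 0.21) and Ciart. Higher were Nfil3 (9.63, 10.21 and 9.54 against 7.92, 8.25 and 8.75, 2.80-fold, adjusted p = 0.00102), which represses the targets of the PAR bZIP factors, and the activators Arntl (0.55 ± 0.15) and Clock (0.25 ± 0.056). The wild-type controls lay with Tgfbr2 loss for Dbp (11.65, 11.80 and 11.58) and Nr1d1 (12.28, 12.63 and 12.57), and the arrays with both lesions lay nearer the Fbn1 mutant (12.79, 12.81 and 12.36 for Dbp). Single arrays ended the calls of Arntl (Tgfbr2 loss array 3, Fbn1 mutant arrays 1 and 2, adjusted p 0.0556 to 0.0918), Cry2 (Tgfbr2 loss arrays 1 and 3, Fbn1 mutant array 2, 0.0707 to 0.0748) and Hlf (Tgfbr2 loss array 3, 0.0622). Hlf was not called with the immediate early covariate (adjusted p = 0.0665), nor Arntl when the fit held the compared groups only (0.0592). The labels give no time of day at which the mice were killed, and its part in these values was not tested.

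Ciart, a repressor of the clock, read 10.69, 10.54 and 9.66 with Tgfbr2 loss and 11.90, 11.80 and 11.46 in the Fbn1 mutant, 2.68-fold lower (adjusted p = 0.0151). Array 3 was the lowest of its group in both, and the call was lost without Tgfbr2 loss array 3 (adjusted p = 0.0612) or Fbn1 mutant array 1 (0.0528) or 2 (0.0524). Its promoter window (chr3:95882199-95882478, minus strand, GRCm38.p6) is printed because it holds 3 copies of CACGTG, the E-box that the activators Arntl and Clock bind, given in capitals, which reads the same on both strands.
Ciart: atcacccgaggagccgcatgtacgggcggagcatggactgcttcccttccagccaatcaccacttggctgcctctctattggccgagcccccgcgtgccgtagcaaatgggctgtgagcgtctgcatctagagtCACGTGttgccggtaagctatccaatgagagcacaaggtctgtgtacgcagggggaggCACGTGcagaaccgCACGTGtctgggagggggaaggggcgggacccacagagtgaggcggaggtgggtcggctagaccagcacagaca
The E-box was in 6 of 24 windows of the clock list (25.0%), from 16 members with a window, and in 7.15% of all windows.

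**Figure D5:**
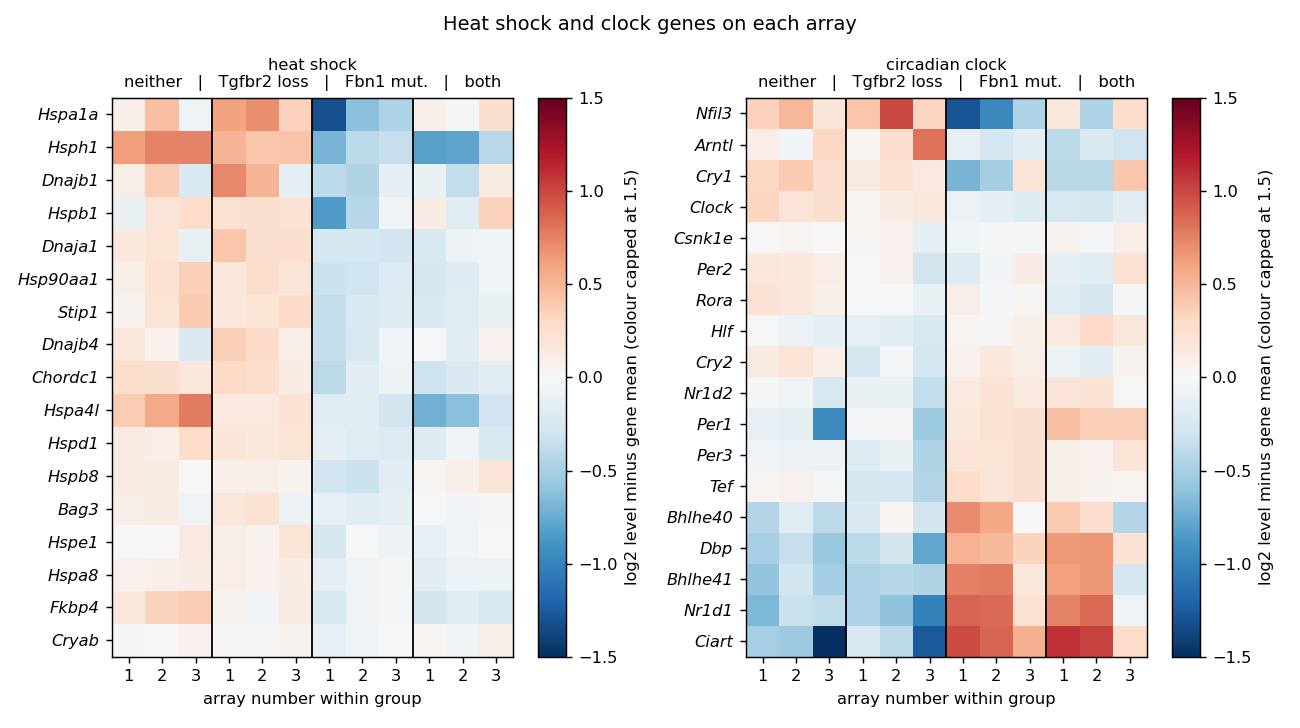
Level of each tested heat shock gene (left) and clock gene (right) on each array, as the log2 level minus the gene's mean over 12 arrays, red above and blue below it, with colour capped at 1.5. Columns are the 3 arrays of each group in the order wild-type control, Tgfbr2 loss, Fbn1 mutant and both lesions, and genes are sorted by the difference between the single lesions. Heat shock genes are blue in the Fbn1 mutant block, and Ciart, Nr1d1, Bhlhe41 and Dbp are red there and blue with Tgfbr2 loss.

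Genes of sterol synthesis were higher with Tgfbr2 loss in 13 of 17 and lower in 0, with a median of 0.36. With the immediate early covariate 8 were higher. Idi1, isopentenyl diphosphate isomerase, read 10.35, 10.64 and 10.59 with Tgfbr2 loss, 8.98, 9.36 and 9.59 in the Fbn1 mutant and 9.84, 9.66 and 9.32 in wild-type controls (2.32-fold between the lesions, adjusted p = 0.000232). The squalene epoxidase Sqle (1.02 ± 0.14), the farnesyl diphosphate synthase Fdps (0.79 ± 0.098) and Msmo1 (0.75 ± 0.11) were the next by p. Against wild-type controls 9 members were higher and 0 lower with Tgfbr2 loss, and 0 were higher and 1 lower with the Fbn1 mutation. Since tamoxifen was given only to the Tgfbr2 loss group of this pair, and tamoxifen is known to act on sterol synthesis enzymes, the drug and the deletion cannot be told apart. With both lesions, also after tamoxifen, Idi1 read 9.43, 9.30 and 9.17.

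Genes close to Fbn1 differed between the lesions about as often as others. Of the 50 tested genes on each side of Fbn1 on chromosome 2, 10 before and 9 after were called, 19% of the 100, against 19.1% of all genes. For the Fbn1 mutation against wild-type controls 6 before and 3 after were called, 9% of the 100, against 6.49% of all genes. Those of smallest p were Ncaph, Mall (1.16 ± 0.18), a membrane protein, Zfp106 (-0.27 ± 0.048), Sema6d, a semaphorin (0.34 ± 0.064), Ppip5k1, an inositol phosphate kinase (-0.34 ± 0.064), and the fibulin Fbln7. Fbln7 read 9.86, 10.04 and 10.03 with Tgfbr2 loss, 10.27, 10.48 and 10.70 in the Fbn1 mutant and 9.62, 9.87 and 9.68 in wild-type controls, and was called higher with the Fbn1 mutation (0.76, adjusted p = 0.00144). The other 5 were called with Tgfbr2 loss against wild-type controls, and Ncaph also with the Fbn1 mutation.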

How the data were processed

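Total RNA of mouse ascending aorta was measured on 12 Affymetrix whole-transcript arrays, 3 in each of 4 groups. The deposited values are linear signal intensity of 35556 probe sets, which the authors normalised with RMA in Partek 6.4, per the submitters' processing notes. Log2 was taken here. A gene was read from its brightest probe set among the 21789 with 1 symbol (1621 had several and 12146 none), which gave 19938 genes, and the 14944 whose mean reached the 25th percentile of those probe sets (log2 7.31) were tested. No detection calls were used, and precision is limited by having 3 arrays a group.

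All 12 arrays were fitted together, with 1 coefficient per group, by lmFit and eBayes of limma 3.58.1 (R 4.3.3), whose tests had 8 residual and 4.54 prior degrees of freedom. Tests were two-sided with Benjamini-Hochberg adjustment over all genes tested. In simulated data each gene had independent normal noise of these spreads, and 200 of 14944 genes were changed in the Tgfbr2 loss arrays. There the direct contrast called 88% of genes changed by 0.5 and 99% of those changed by 1, with 3.61% of calls false. Shifts that many genes of an array share were not simulated, so these rates need not hold for the real arrays.

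The genes named are the 12 largest increases and decreases whose groups do not overlap (without predicted genes, smell receptors and small RNAs), up to 4 members of smallest p per list and the TGF-beta receptors, 6 genes of each kind called in both lesions, 6 near Fbn1, and Tgfbr2. Others were chosen after their values were seen. The 46 gene lists, which overlap, and the groups compared were chosen with earlier results of these data known, and no list was tested as a set. The 24 planned settings changed the filter, scaling, probe set rule, variance model, array weights, arrays fitted, replicate block, 2 covariates or left out 1 array, and 3 covariates were added after the data were seen. Promoter windows are from RefSeq (GRCm38.p6), and 11792 tested genes have one.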

Additional observations from a re-analysis of the deposited data

How the results depend on the processing

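Of 200 named genes called between the lesions, 167 stayed called under each of the 24 planned settings that tested them. The call of 33 was lost under at least 1, and 0 changed sign under any of these. A gene too dim for the filter at the median was not counted as lost there. Many of the 200 were picked for a small p or a large difference, which favours keeping the call. The 1555 higher genes became 963 with a filter at the median, where 9912 genes were tested instead of 14944. They became 974 with an immediate early gene score as a covariate and 875 to 1632 when 1 array was left out. The 1298 lower genes became 715 to 1405 when 1 array was left out. The 2814 genes of Tgfbr2 loss against wild-type controls became 1836 to 2992 without 1 array (1836 without Tgfbr2 loss array 3, 1874 without array 1). The 970 of the Fbn1 mutation became 349 to 1073 without 1 array (349 without Fbn1 mutant array 2, 479 and 554 without wild-type control arrays 2 and 3, 532 without Fbn1 mutant array 1), 1568 with array weights and 480 when fitted with the compared groups only. Deviations of same-numbered arrays of the compared groups correlated at -0.028, -0.087 and 0.097, which cannot show whether the numbers pair samples. The replicate block gave 1455 higher, 1182 lower, 2595 and 867 genes, ending the calls of Atf3 and Eln among the genes named. The following 3 covariates were chosen after the data were seen. With Nnt, 1206 genes were called for Tgfbr2 loss and 183 for the Fbn1 mutation, where the median standard error of the second contrast grew 1.67 times. The heat shock score and the first component of the clock list separate the compared groups, so they take up much of the contrast itself, and the median standard error grew 2.78 and 2.05 times. They left 29 and 56 higher genes, 8 and 49 lower ones, and 0 and 2 for the Fbn1 mutation by limma, where 1219 and 1057 had an unadjusted p under 0.05. Under the heat shock score the differences of Atf3 (-0.71), Tcap (0.46), Emilin1 (0.037), Col1a1 (0.027), Col5a1 (0.13), Tnnt2 (-0.078), Casq1 (0.16), Myc (-0.34), Maff (-0.19), Hspa1a (-0.10), Cacna1c (0.12), Gata4 (-0.15), Agtr1a (0.14), Tgfbr2 (0.0016), Acvrl1 (-0.028), Eln (0.20), Bmpr1a (0.12), Hspb1 (-0.65), Bhlhe41 (0.25) and Ccn2 (-0.27), and the changes of Mki67 (-0.013), Gmnc (0.016), Ky (-0.0053) and Tet1 (-0.078) with the Fbn1 mutation, changed sign. Under the clock component Ciart (0.44), Tcap (0.35), Pparg (-0.0088), Tgfbr2 (0.050), Acvrl1 (-0.020), Hspb1 (-0.058), Bhlhe41 (0.071), Nr1d2 (0.026) and, with the Fbn1 mutation, Glp1r (0.042) did. None of these was called with the changed sign, and the cause was not tested.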

Other observations

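Growth factor and protease genes not described above also differed between the lesions. Igf1, insulin-like growth factor 1, read 12.25, 12.22 and 12.50 with Tgfbr2 loss and 10.88, 11.00 and 10.79 in the Fbn1 mutant (2.70-fold, adjusted p = 1.95e-05), and the aortas with both lesions (11.90, 12.11 and 11.87) lay nearer Tgfbr2 loss. Among other growth factors, the lymphangiogenic factor Vegfd (0.73 ± 0.12) and Bdnf (0.33 ± 0.062) were higher and Fgf1 was lower (-0.44 ± 0.070). Timp1, an inhibitor of metalloproteinases, read 12.04, 12.09 and 11.74 against 10.78, 10.48 and 10.84 (2.38-fold, adjusted p = 4.96e-05), and the serine protease inhibitor Serpina3n differed by 1.32 ± 0.13. Proteases and inhibitors as a list were higher in 6 of 34 and lower in 5, where 10.4% of all genes were higher and 8.69% lower. The lower count of this list fell to 3 without Tgfbr2 loss array 1 or 3 or Fbn1 mutant array 1. Among matricellular genes, Cthrc1, a secreted protein of injured arteries, read 10.94, 10.58 and 10.62 against 9.35, 9.06 and 9.14 (adjusted p = 7.1e-06), within 8 higher and 5 lower of 24. The 5 lower genes became 3 without Tgfbr2 loss array 1 or Fbn1 mutant array 2. Versican, Vcan, was higher with Tgfbr2 loss (0.56 ± 0.081). The Fbn1 mutant read 10.75, 10.72 and 10.93 and wild-type controls 11.66, 11.34 and 11.38, so the Fbn1 mutant was the low group. Proteoglycan genes were higher in 7 of 30 and lower in 3, the second near the 8.69% of all genes.

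Transcription factors and signalling genes of development were called too. Sox9, the cartilage factor, was raised from wild-type controls (9.85, 9.97 and 9.80) with Tgfbr2 loss (10.40, 10.34 and 10.27) and lowered with the Fbn1 mutation (9.16, 9.40 and 9.44). Aortas with both lesions read 9.69, 9.66 and 9.79. Of 18 Notch genes 4 were higher and 4 lower, where 10.4% of all genes were higher and 8.69% lower. Heyl, a Notch target, was lower with Tgfbr2 loss (-0.79 ± 0.079, adjusted p = 4.23e-05), and Notch3, the Notch receptor of smooth muscle, read 10.63, 10.70 and 10.49 against 11.19, 10.93 and 11.01 with wild-type controls at 10.37, 10.58 and 10.50. The Wnt antagonist Frzb was higher (1.45 ± 0.12, adjusted p = 1.64e-05). Genes of cytokines and their receptors were higher in 11 of 25 and lower in 0.

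Fibroblast markers, of the cells that populate the outer vessel wall, were higher in 7 of 24 and lower in 1, with a median of 0.15. Over all genes 10.4% were higher and 8.69% lower, with a median of 0.011. Pi16 (0.77 ± 0.12) was among the higher ones, and Col14a1 was the lower one. Against wild-type controls 9 were higher and 3 lower with Tgfbr2 loss, and 3 higher and 3 lower with the Fbn1 mutation. The summed intensity of the list was 117743 to 124054 with Tgfbr2 loss, 105344 to 113341 in the Fbn1 mutant and 105398 to 115695 in wild-type controls, and its part in the matrix differences was not tested.

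Markers of fat and heart muscle, which lie near the aorta, were called in both directions. Of 24 adipocyte genes 4 were higher and 1 lower, where 10.4% of all genes were higher and 8.69% lower. Without Tgfbr2 loss array 3 or Fbn1 mutant array 1, 1 was higher and 2 were lower, and without Tgfbr2 loss array 2, 2 were higher. Their summed intensity was 33672 to 40297.5 with Tgfbr2 loss and 29260.3 to 41768 in the Fbn1 mutant, ranges that overlap. The brown fat gene Ucp1 read 6.76, 6.75 and 8.58 in the Fbn1 mutant and 6.75, 6.93 and 6.87 with Tgfbr2 loss, so Fbn1 mutant array 3 stood apart. The summed intensity of 24 cardiac muscle genes was 35917.5 to 39515 against 31711 to 35263. Of these, 6 were called higher and 2 lower, the second near the 8.69% of all genes. The lower ones were Ryr2 (-0.75 ± 0.12), the calcium release channel, and Hspb7 (-0.20 ± 0.048), and 1 was lower without Tgfbr2 loss array 3. The 6 higher ones, Gata4 and Ankrd1 among them, became 1 to 3 without any 1 Tgfbr2 loss array or Fbn1 mutant array 1 or 3. Of 18 genes responsive to estrogen or tamoxifen 4 were higher and 1 lower, against 10.4% higher and 8.69% lower over all genes. Ephx2 (1.21 ± 0.16, adjusted p = 0.000423) was among the higher ones.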
